A study of Mus musculus with 3 samples.

Results

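The regions described here are 2122 stretches of open chromatin that lay far from any protein-coding gene and were found in every library of the series. They were taken from 118441 peaks of ATAC-seq, an assay in which a transposase cuts and tags accessible DNA, in control cells after 1 day of differentiation. A region was kept where it lay on an autosome, where the pileup (the number of fragments covering the summit) was at least 1 FPM (fragments per 1000000 fragments of the library), and where peaks of both other libraries overlapped it by at least 1 bp. Its summit also had to lie outside genes and more than 100000 bp from the nearest end of any protein-coding gene, and the 1000 longest peaks were left out. The members make up 8.26% of 25704 autosomal peaks that meet the same conditions on pileup, overlap and length at any distance from genes. Of those other peaks, 9093 had their summit within 1000 bp of an end of a protein-coding gene, 9557 lay elsewhere within a gene, and 4932 lay between genes at up to 100000 bp. The members were chosen by their pileup in control cells at day 1 and their presence in all libraries, so the values below describe chosen regions and no test was made on them.

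The cells were oligodendrocyte progenitors, which divide in the young brain and give rise to the oligodendrocytes that wrap axons in myelin. They were immunopanned from the cortex of C57BL/6 pups of postnatal day 4 to 7, and 50000 cells were used per library. The progenitor library came from control cells labelled wild type at day 0, grown with PDGF-AA, bFGF, NT3 and CNTF. The control day 1 library came from control cells 1 day after triiodothyronine (T3, 60 nM) had been added and PDGF-AA, bFGF and NT3 withdrawn. The Seh1cKO library came from cells with a conditional knockout of Seh1, a component of the nuclear pore complex, after the same day of T3. The Cre line behind the knockout and the number of pups pooled are not given in the sources used here, and each group has 1 library. The letters DO in the title of the first sample were read as day 0.

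The 3 libraries held 23403600, 18260883 and 10845533 fragments and 108788, 118441 and 46113 peaks, in the order progenitor, control day 1 and Seh1cKO. The lowest pileup called was 9, 8 and 6 fragments, and the depth of the Seh1cKO library was 59.4% of that of control day 1. A pileup of 15 fragments has an exact Poisson interval of 8.40 to 24.7 at 95% and a pileup of 37 one of 26.1 to 51.0, for counting error only. Of 35 genes listed for oligodendrocyte progenitors, 31 had a peak within 1000 bp of a gene end in all 3 libraries, and Cspg4, Pcdh15, Sulf2 and Zfp488 did not. The same count was 19 of 32 for genes of myelin and mature oligodendrocytes, 12 of 16 for astrocytes, 11 of 20 for neurons, 5 of 18 for endothelial and mural cells and 3 of 16 for microglia. Over all autosomal protein-coding genes it was 11482 of 20665 (55.6%), and the counts for myelin and neuron genes were near that share. Among microglial genes Csf1r, Cx3cr1 and Aif1 were without such a peak in at least 1 library.

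Gene deserts are long spans without protein-coding genes. Many hold enhancers, short stretches of DNA that bind transcription factors and act on a promoter that can lie very far away on the same chromosome, and deserts beside genes of developmental regulators are known for such elements. Other accessible sites in deserts are promoters of long non-coding RNAs and of microRNAs, or binding sites of CTCF, a protein that helps to fold chromosomes. Accessibility alone does not tell these kinds apart.

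For 64 of the 2122 regions the sequence of a promoter window could be shown. Each covered part or all of a RefSeq window running from 250 bases before to 50 bases after an annotated start, of 64 long non-coding RNA genes in all. The 4 windows below lie whole inside a peak and were chosen as hosts of microRNAs (Mir99ahg and Mir100hg), as a known neural transcript (Tunar) and as a region among the extremes given later (Gm34196). They are written 5′ to 3′ on the strand of the gene, in the RefSeq annotation of GRCm38.p6, and capitals mark the words searched.
Mir99ahg, chr16:77329078-77329377, plus strand: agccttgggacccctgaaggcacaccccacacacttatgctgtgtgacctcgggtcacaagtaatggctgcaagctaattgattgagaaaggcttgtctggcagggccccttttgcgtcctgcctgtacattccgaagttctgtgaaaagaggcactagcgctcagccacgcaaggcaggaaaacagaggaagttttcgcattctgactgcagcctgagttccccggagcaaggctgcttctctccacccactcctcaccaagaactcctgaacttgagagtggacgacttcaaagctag
Mir100hg, chr9:41474643-41474942, plus strand: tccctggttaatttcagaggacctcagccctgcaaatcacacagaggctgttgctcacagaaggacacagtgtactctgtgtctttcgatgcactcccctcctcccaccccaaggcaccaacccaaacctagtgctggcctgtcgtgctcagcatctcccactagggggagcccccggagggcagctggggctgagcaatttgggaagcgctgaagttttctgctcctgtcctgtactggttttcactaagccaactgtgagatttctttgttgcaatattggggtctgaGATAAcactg
Tunar, chr12:105336743-105337042, plus strand: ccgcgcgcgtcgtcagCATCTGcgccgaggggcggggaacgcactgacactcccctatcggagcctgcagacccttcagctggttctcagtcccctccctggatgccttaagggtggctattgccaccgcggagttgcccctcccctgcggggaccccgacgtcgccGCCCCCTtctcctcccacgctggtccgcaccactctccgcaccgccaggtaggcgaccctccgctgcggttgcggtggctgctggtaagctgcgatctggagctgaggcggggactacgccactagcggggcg
Gm34196, chr13:84906118-84906417, minus strand: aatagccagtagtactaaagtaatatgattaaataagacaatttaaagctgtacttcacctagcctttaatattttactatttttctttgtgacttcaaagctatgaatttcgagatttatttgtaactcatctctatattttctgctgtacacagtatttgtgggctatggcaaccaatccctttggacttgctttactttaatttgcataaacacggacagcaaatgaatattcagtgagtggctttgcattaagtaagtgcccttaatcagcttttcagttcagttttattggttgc

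Mir99ahg is the host transcript of Mir99a, Mirlet7c-1 and Mir125b-2, and Mir100hg that of Mir125b-1. Tunar is a long non-coding RNA known from pluripotent and neural cells. Pileups are those at the summits of the peaks, not counts within the windows. The region over the Mir99ahg window had 34 fragments in progenitors, 24 in control day 1 and 14 in Seh1cKO. That over the Mir100hg window had 30, 27 and 18 fragments in the same order. In FPM these regions of Mir99ahg and Mir100hg stayed within 0.21 of control day 1 on the log2 scale in both other libraries. A different region, over part of another Mir100hg window, had 46, 30 and 17 fragments. Its log2 ratios to control day 1 were 0.26 in progenitors and -0.068 in Seh1cKO cells. At Tunar the pileups were 22, 39 and 19 fragments, and the log2 ratio of progenitors to control day 1 was -1.18. The region over the Gm34196 window had 86 fragments in progenitors, 22 in control day 1 and 28 in Seh1cKO. Its control day 1 summit, at position 84905568, lay outside the printed window, as did that of the Mir99ahg region, at 77329480. In FPM the Gm34196 region was highest in progenitors (3.67), lowest in control day 1 (1.20) and between them in Seh1cKO cells (2.58).

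Exact words of known factors were searched on both strands of the 300 base windows. CAGATG, an E-box bound by factors of the Olig class, was present in 20.3% of the 64 covered windows and in 21.8% of 11588 windows of long non-coding RNA genes. For GATAA, the core of the sites of GATA factors and taken for comparison, these shares were 26.6% and 30.8%. AGGGGGC, a part of the CTCF consensus, was present in 12.5% of covered windows, in 6.39% of long non-coding RNA windows and in 10.6% of all 32851 windows.

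The other E-box searched, CACCTG, was present in 17.2% of covered windows and in 21.1% of those of long non-coding RNA genes. The word of Sox factors, ACAATG, had shares of 15.6% and 15.4%, and that of NFI factors, TTGGCA, shares of 18.8% and 16.0%. A further part of the CTCF consensus, AGATGGC, can overlap the Olig E-box and was present in 7.81% and 7.11% of windows. The AP-1 word, TGACTCA, was present in 3.12% and 6.20%. A match is a description of these letters alone.

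The 64 regions at promoter windows had a median length of 600.5 bp, against 518 bp for the other 2058. Their median log2 ratio of Seh1cKO to control day 1 was -0.34, against -0.50 for the others. More than 2-fold lower pileup in FPM in Seh1cKO cells was seen for 8 of the 64 (12.5%) and for 22.7% of the others. The share over all 25704 constant peaks was 13.3%, near that of the 64.

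The microRNA genes most often found at the regions were those of the Mir344 family on chromosome 7, a cluster of hairpins between Gm51483 and Ndn, in the neighbourhood of the imprinted genes of the Prader-Willi interval. Mature sequences of this family are given 5′ to 3′ with the seed, bases 2 to 8, in capitals. The seed is the part that pairs with targets, and microRNA levels were not measured.
miR-344-3p: uGAUCUAGccaaagccugacugu
miR-344c-3p: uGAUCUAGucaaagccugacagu
miR-344d-3p: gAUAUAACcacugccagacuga
miR-344f-3p: cUCUAGCCaggaccugacuac
miR-344-5p: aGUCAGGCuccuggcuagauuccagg
miR-344c-5p: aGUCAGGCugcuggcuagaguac
miR-344f-5p: aGUCAGUCuccuggcuggaguc
miR-344i: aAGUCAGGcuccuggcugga

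By seed, miR-344-3p and miR-344c-3p share GAUCUAG, and miR-344-5p and miR-344c-5p share GUCAGGC, while miR-344d-3p and miR-344f-3p have seeds of their own. The family has 13 annotated genes spread over 402186 bp. Of these, 6 had a member summit within 1000 bp, and at all 6 the whole hairpin lay inside the peak. A peak of any strength was present within 1000 bp of 9 of the 13 genes in progenitors, of 9 in control day 1, of 8 in Seh1cKO cells and of 7 in all 3 libraries.

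Summit pileups of the regions at these hairpins are given in the order progenitor, control day 1 and Seh1cKO. They were 52, 56 and 37 fragments at Mir344c and 37, 23 and 12 at Mir344. They were 42, 24 and 21 fragments at Mir344-2 and 16, 32 and 16 at Mir344d-2. The last of the set, Mir344f and Mir344i, had 37, 48 and 15 and 39, 48 and 14 fragments. In FPM, Mir344f and Mir344i were the lowest in Seh1cKO cells relative to control day 1, with log2 ratios of -0.93 and -1.03, while Mir344-2 had a ratio of 0.56 and Mir344c of 0.15. Near-identical hairpins can share reads, and the treatment of reads with several matches is not given in the sources used.

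Elsewhere the hairpin of Mir802, between Runx1 and Setd4, lay whole inside a region with 61, 28 and 17 fragments. Regions lay near, but not over, hairpins conserved among vertebrates. The summit was 1826 bp from Mir125b-2 (45, 39 and 22 fragments) and 2013 bp from Mir125b-1 (36, 21 and 17 fragments). A region with 21, 24 and 10 fragments lay 4152 bp from Mir99a and 4873 bp from Mirlet7c-1, and one with 19, 20 and 15 fragments lay 5757 bp from Mir124a-2. Their mature products are shown because Mir125b-1 and Mir125b-2, on different chromosomes, yield the same guide strand and each lies beside a desert region.
miR-125b-5p: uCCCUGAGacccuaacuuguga
miR-99a-5p: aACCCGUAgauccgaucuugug
let-7c-5p: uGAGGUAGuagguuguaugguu

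In all, 8 of 2122 summits lay within 1000 bp of a microRNA gene and 28 within 10000 bp. Long non-coding RNA genes were more frequent neighbours. A summit lay inside such a gene for 428 regions (20.2%, exact Clopper-Pearson interval 18.5 to 21.9 at 95%), close to the 19.7% of intergenic peaks nearer to genes. A summit within 1000 bp of an end of such a gene was seen for 137 regions (6.46%, 5.45 to 7.59) and for 10.8% (9.95 to 11.7) of the nearer intergenic peaks. With pseudogenes and small RNAs counted too, 520 regions (24.5%, 22.7 to 26.4) lay inside or within 1000 bp of an annotated non-coding gene, against 28.2% of the nearer peaks. The other regions had no RefSeq gene of any kind within that distance.

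The regions were narrow and of moderate height. Their length ran from 112 to 1182 bp with a median of 521 bp, against 518 bp for intergenic peaks nearer to genes, 547 bp within genes and 699 bp at gene ends. The middle 50% of pileups lay between 22 and 52 fragments in progenitors, between 26 and 57 in control day 1 and between 11 and 23 in Seh1cKO, with medians of 33, 37 and 15. In FPM the medians were 1.41, 2.03 and 1.38. At gene ends the same medians were 2.05, 2.79 and 2.86, so the 2 kinds of peak differed most in the Seh1cKO library. The authors' fold enrichment over the local background had a median of 9.87 in the desert regions and 9.78 at gene ends in control day 1, but 6.45 and 9.03 in Seh1cKO cells.

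**Figure D1:**
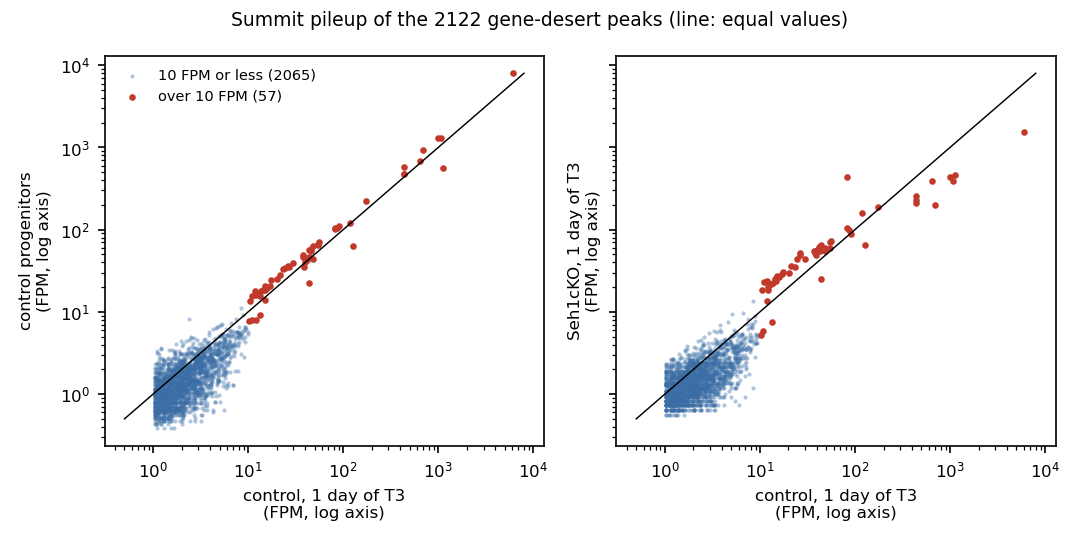
Summit pileup in FPM of each of the 2122 desert regions in the control day 1 library (x axis) against the progenitor library (left) and the Seh1cKO library (right), on log axes. Most points lie below the line of equal values in both panels, and the 57 regions above 10 FPM (red) form a separate arm.

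The rule required the peaks of the 3 libraries to overlap, which limits how far their summits can lie apart. The summit of the strongest overlapping peak lay a median of 47 bp away in progenitors and 53 bp away in Seh1cKO cells, and within 100 bp for 78.0% and 77.4% of regions. Over all constant peaks the medians were 52 and 50 bp and the shares 74.8% and 76.6%. In progenitors 30 regions shared their overlapping peak with a neighbouring region, and in Seh1cKO cells 20 did, so their values are not separate measurements.

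Presence in all libraries was part of the rule, and its rate is given for description. Of 3253 desert peaks of at least 1 FPM, 2122 (65.2%) were present in both other libraries, beside 70.5% of all 36459 autosomal peaks of that strength and 88.4% of those at gene ends. A further 472 desert peaks (14.5%) were shared with progenitors only, 183 (5.63%) with Seh1cKO cells only and 476 (14.6%) with neither. Just inside the minimum on pileup lay 88 regions with 19 fragments (1.04 FPM), for example between Defb41 and Tfap2d and between Erbb4 and Ikzf2. Just outside it lay peaks with 18 fragments (0.986 FPM), for example between Xkr9 and Eya1, and 768 desert peaks present in all libraries fell under the minimum. The region closest to a gene lay 100226 bp from Luzp2, and the nearest one left out lay 99998 bp from Gsdmc. The longest region kept had 1182 bp (Pabpc6 to Qk), the shortest left out 1205 bp in the same desert, and 17 desert peaks fell among the longest 1000.

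In Seh1cKO cells the regions were lower than in control cells at day 1. Pileup in FPM was below that of control day 1 in 1668 of the 2122 (78.6%), and the median log2 ratio was -0.49, with quartiles of -0.95 and -0.066. It was more than 2-fold lower in 475 regions (22.4%, 20.6 to 24.2), beside 13.3% of all 25704 constant peaks, and more than 2-fold higher in 19, beside 0.945% of all. The median ratio was -0.40 for nearer intergenic peaks, -0.45 within genes and -0.0073 at gene ends, where 1.98% were more than 2-fold lower. The median over all constant peaks was itself -0.25. Relative to that shift the desert median was -0.24, with 268 regions more than 2-fold lower (12.6%, beside 7.59% of all constant peaks) and 64 more than 2-fold higher (3.02%, beside 2.57%), and gene ends had a median of 0.24.

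**Figure D2:**
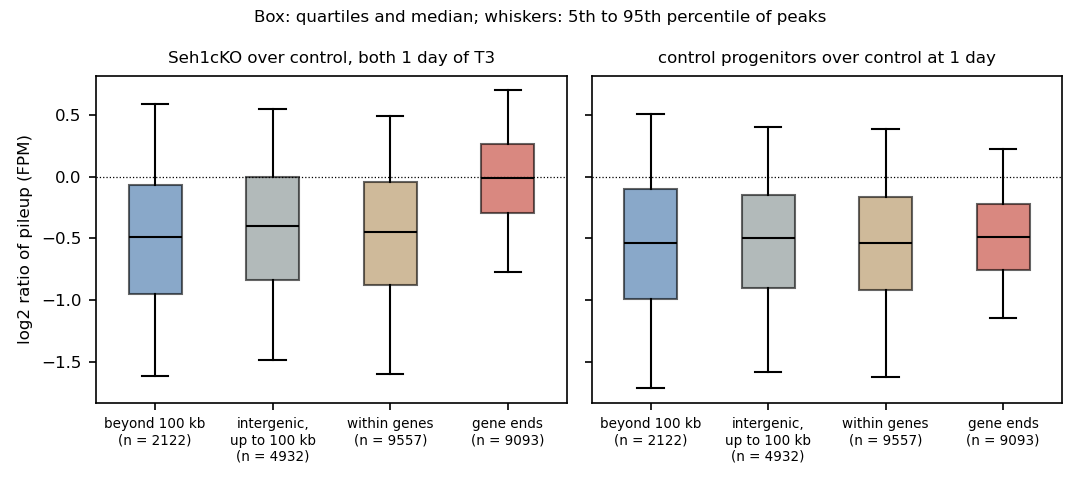
Log2 ratio of pileup in FPM, Seh1cKO over control day 1 (left) and progenitors over control day 1 (right), for the 4 places of constant peaks; boxes give quartiles and median, whiskers the 5th to 95th percentile of peaks. On the left the gene-end box is centred at -0.0073 and the desert box at -0.49, while on the right all 4 medians lie between -0.49 and -0.53.

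Progenitors were also lower than control cells at day 1, in every place. Pileup in FPM was below control day 1 in 1683 regions (79.3%) and in 88.1% of gene-end peaks. The median log2 ratio was -0.53 in deserts, -0.50 in nearer intergenic peaks, -0.53 within genes and -0.49 at gene ends, with a median over all constant peaks of -0.51. In deserts 523 regions (24.6%) were more than 2-fold lower, beside 17.2% of all constant peaks and 9.91% of gene-end peaks, and 19 were more than 2-fold higher, beside 0.447%. After scaling by the median of all peaks the numbers were 183 (8.62%, beside 4.55% of all) and 114 (5.37%, beside 2.93%). Among peaks of like strength in control day 1, deserts had a lower median than gene ends in each bin up to 10 FPM, with -0.36 against -0.23 for 1 to 1.5 FPM and -0.74 against -0.54 for over 3 to 5. Both ratios use the control day 1 library, on which the regions were chosen, so a low ratio is favoured in each and the ratios are not independent of each other.

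The ratio of Seh1cKO cells to progenitors does not use the library that set the minimum on pileup. Its median was 0.041 in deserts, 0.11 in nearer intergenic peaks and within genes, and 0.48 at gene ends. More than 2-fold lower pileup in FPM in Seh1cKO cells than in progenitors was seen for 64 desert regions (3.02%), beside 1.93% of all constant peaks, and more than 2-fold higher pileup for 112 (5.28%), beside 6.84%. After scaling by the median of all peaks, 0.25, the counts were 182 (8.58%, beside 5.12% of all) and 37 (1.74%, beside 2.26%). In FPM before this scaling, the typical desert region thus stood in Seh1cKO cells at day 1 near its level in control progenitors. Relative to the median of all peaks, the desert median was -0.21. Regions also had to be called in Seh1cKO cells, where the lowest pileup was 0.553 FPM, against 0.385 in progenitors. This cuts off low ratios. A larger share of fragments in gene ends of the Seh1cKO library and a lower level in deserts cannot be told apart in values in FPM, and the lower depth of that library moved with the result. The part of either in the difference was not tested.

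The difference between deserts and gene ends was larger among stronger peaks, up to 5 FPM. Among peaks of 1 to 1.5 FPM in control cells at day 1, the median log2 ratio of Seh1cKO to control was -0.25 in 641 desert regions and 0.13 at gene ends. It was -0.44 against 0.015 at over 1.5 to 2 FPM and -0.66 against 0.027 at over 2 to 3. In the 356 desert regions of over 3 to 5 FPM the median was -0.96, against -0.64 in nearer intergenic peaks, -0.73 within genes and -0.016 at gene ends. At over 5 to 10 FPM the 4 medians were -0.91, -0.71, -0.75 and -0.068. A weak region cannot show a large fall, since it had to be called in Seh1cKO cells with at least 6 fragments, or 0.553 FPM.

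**Figure D3:**
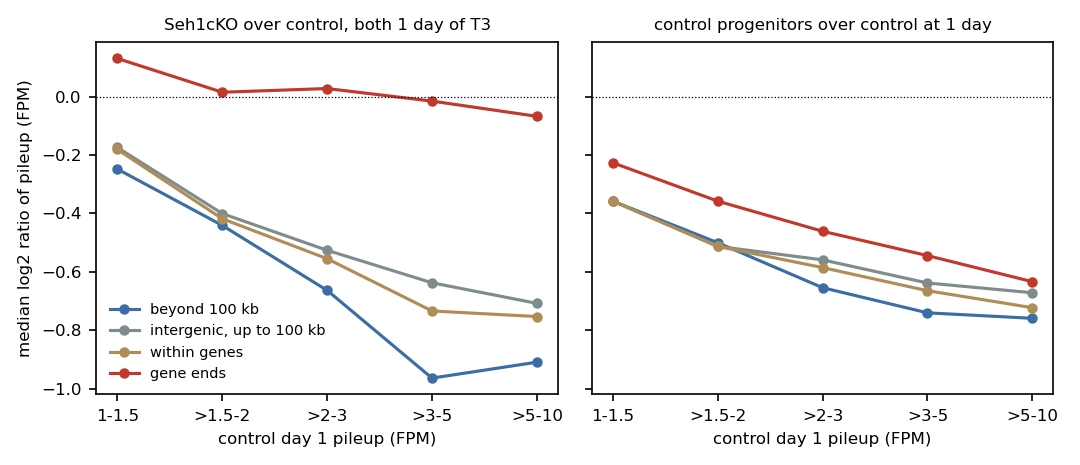
Median log2 ratio of pileup in FPM by strength of the peak in control cells at day 1 (x axis, FPM), for the 4 places; left Seh1cKO over control day 1, right progenitors over control day 1. On the left the desert line falls from -0.25 to -0.96 and then -0.91 while the gene-end line stays between 0.13 and -0.068; on the right all lines fall, and the gene-end line lies above the desert line.

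Within deserts the ratio also differed by distance. The median log2 ratio of Seh1cKO to control day 1 was -0.46 in 912 regions up to 200000 bp from a gene, -0.49 in 892 regions up to 500000 bp, -0.59 in 246 regions up to 1000000 bp and -0.66 in 72 regions beyond. The share more than 2-fold lower was 20.8% (18.2 to 23.6) in the nearest bin and 34.7% (23.9 to 46.9) in the farthest. It was 22.4% of all desert regions and 13.3% of all constant peaks. The ratio of progenitors to control day 1 went the same way, from -0.49 to -0.80. The median pileup in FPM in control cells at day 1 was 1.97 in the nearest bin and 2.11 in the farthest, which also held 7 regions above 10 FPM. Of these 7, 5 lay between Lrrc4c and Iftap, with a median ratio of Seh1cKO to control day 1 of -1.05.

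A set of 57 regions stood apart with pileups above 10 FPM. Of these, 32 lay within 37620 bp of each other at the very start of the assembled chromosome 9, chr9:3000007-3038287, before Alkbh8, with pileups of 190 to 3182 fragments in control cells at day 1. Another 5 lay between Lrrc4c and Iftap at chr2:98662235-98667313, with 7965 to 110968 fragments in control day 1 and 2140 to 16704 in Seh1cKO cells, and 4 between Gm41099 and Gm2244 at chr14:19415778-19419000. Single ones lay between Flrt2 and Galc with 12995, 20627 and 5072 fragments, and before Rab10 with 30163, 19472 and 4258. The left gene found for the latter, LOC115489384, is placed in the unassembled start of chromosome 12, so that flank is doubtful. The 5 on chromosome 2 had a median authors' fold of 2.30 over their local background. The log2 ratios of Seh1cKO to control day 1 ran both ways, with a median of 0.65 on chromosome 9 and -1.05 on chromosome 2, and the median over the 57 was 0.45. Duplicate fragments were kept by the authors and no list of regions with artificial signal was used here, so their part in these pileups was not tested. Without the 57, the other 2065 regions had a median ratio of -0.50.

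The region with the lowest ratio of Seh1cKO to control day 1, chr15:56382483-56383265 between Sntb1 and Has2, a synthase of hyaluronan, had 32 fragments in progenitors, 111 in control day 1 and 8 in Seh1cKO, a log2 ratio of -3.04. The exact Poisson intervals of the latter pileups are 91.3 to 134 and 3.45 to 15.8 fragments. Next came a region between Ncam1, a neural cell adhesion molecule, and Plet1 with 30, 128 and 10 fragments (-2.93), and one between Nup35 and Zfp804a with 71, 154 and 13 (-2.81). The region between Ttll7 and Adgrl2, an adhesion receptor of synapses, had 15, 101 and 9 fragments (-2.74), and that between Epha6, an ephrin receptor, and Nsun3 22, 76 and 8 (-2.50). In all of these the control day 1 library was high and both others were lower.

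The Ttll7 to Adgrl2 region also had the lowest ratio of progenitors to control day 1, -3.11. It was followed by regions between Cdh6 and Cdh9 (14, 78 and 11 fragments), Pdzrn3 and Cntn3 (11, 59 and 8), Gm32936 and Lrfn5 (15, 78 and 17), and Manea and Epha7 (19, 93 and 15). Cadherins, contactins and Lrfn5 are surface proteins that join or organise neural cells. Here too the Seh1cKO pileup stayed low.

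At the other end, the largest log2 ratio of Seh1cKO to control day 1, 2.43, belonged to a region at chr14:19417792-19417950 that shares its Seh1cKO peak with a stronger neighbour, so it is not a separate value. The next were regions between Hrh4 and Zfp521 (60, 21 and 29 fragments), Sall3 and Galr1 (64, 31 and 42), 4930544G11Rik and Mad2l1 (24, 21 and 28), and Cmpk2 and Sox11 (83, 22 and 29). In FPM, Seh1cKO cells were the highest library at the first 3 of these and progenitors at the last. Sox11 encodes a transcription factor of immature neural cells, and its region, chr12:27065139-27065390, lay 268990 bp from the gene. The same region was among the 5 highest in progenitors relative to control day 1, with one before Vmn1r238 (193, 44 and 31) and one between Mdfic and Tfec (79, 20 and 25). The others were the region over the Gm34196 promoter window, between Tmem161b and Ccnh (86, 22 and 28), and one between Gm11677 and Sox9 (75, 20 and 21).

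Many regions stood in groups. With regions joined where neighbouring summits lay within 50000 bp, 873 of 2122 (41.1%) fell into 342 clusters and 1249 stood alone. There were 230 pairs, 84 clusters of 3 and 28 of 4 or more. Without the regions above 10 FPM the largest cluster held 7 in place of 32, and 39.9% of regions were clustered.

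A cluster of 7 lay between Dnajc19 and Sox2, a transcription factor of neural stem cells and glial progenitors, at chr3:34411349-34465794 and at least 184485 bp from Sox2. Its first region reached the promoter of the long non-coding RNA Gm34599 and had 64, 58 and 31 fragments in progenitors, control day 1 and Seh1cKO. The others had 59, 54 and 25, then 59, 37 and 25, 65, 71 and 44, 73, 85 and 26, 16, 30 and 7, and 59, 54 and 27 fragments. Of the 7 summits 4 lay close together. The region with 16, 30 and 7 fragments, outside that group, was the weakest of the 7 in every library. The median log2 ratio of Seh1cKO to control day 1 was -0.25 and of progenitors -0.23, both smaller falls than the medians of all desert regions. In the Haao to Zfp36l2 desert another 7 regions at chr17:83954386-84082345 had pileups of 19 to 91 fragments in progenitors, 21 to 105 in control day 1 and 12 to 41 in Seh1cKO cells. There the ratio of Seh1cKO to control day 1 was below 0 for all 7, with a median of -0.61.

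The cluster with the lowest median ratio of Seh1cKO to control day 1 among those of 6 or more lay between Abhd5, a lipid droplet protein, and Topaz1. Its 6 regions at chr9:122572052-122636060 had 21, 49 and 15, then 40, 105 and 27, 67, 100 and 27, 24, 48 and 16, 45, 142 and 19, and 27, 33 and 26 fragments. Progenitors were below control day 1 in FPM in all 6 and Seh1cKO cells in 5, with median log2 ratios of -1.47 and -1.05. Between Wdr11 and Fgfr2, a receptor of fibroblast growth factors, 6 regions at chr7:129744112-129842773 showed smaller differences, with medians of -0.12 in progenitors and -0.17 in Seh1cKO cells. Their strongest had 71, 61 and 21 fragments, and the one with the fewest in Seh1cKO cells 17, 28 and 9.

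The Tcp10c to Tcte2 cluster at chr17:13481368-13591562 differed in direction. Its 7 regions had a median log2 ratio of 0.68 for Seh1cKO cells and 0.22 for progenitors, with 369, 200 and 252 fragments at the strongest and 90, 99 and 34 at the first. The strongest, at 10.95 FPM in control day 1, was among the 57 regions above 10 FPM, whose possible artificial signal was not tested. Between Kif2a and Zswim6, at chr13:107361582-107461405, 5 regions had a median Seh1cKO ratio of -0.61, and the strongest had 98, 116 and 45 fragments. It and the Lrrc4c to Iftap cluster had the largest summed control day 1 pileups among the clusters of 5, by which ties were broken. Chosen after its values were seen, a cluster of 5 between Ube3a and Snrpn, in the imprinted Prader-Willi and Angelman interval, had Seh1cKO ratios between 0.051 and 0.44, above control day 1 in all 5.

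**Figure D4:**
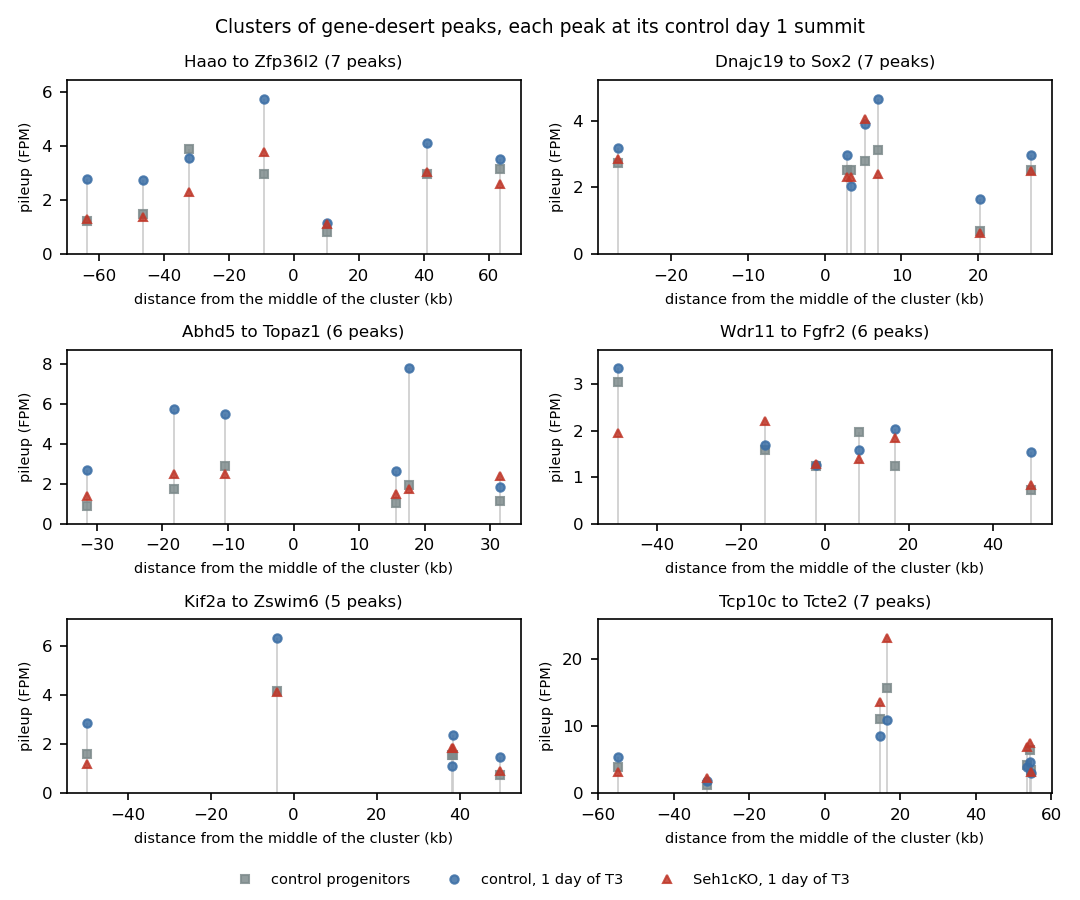
Pileup in FPM at each region of 6 clusters, plotted at its distance from the middle of the cluster in kb; squares are progenitors, circles control cells after 1 day of T3 and triangles Seh1cKO cells after 1 day of T3. In the Abhd5 to Topaz1 panel the circle is the highest marker at 5 of 6 regions, and in the Tcp10c to Tcte2 panel the triangle is highest at the strongest region.

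Between neighbouring autosomal protein-coding genes there were 1393 gaps of more than 200000 bp, and 755 of them (54.2%, 51.5 to 56.8) held 2077 of the regions. The other 45 lay at a chromosome end with a gene on 1 side only. Of the gaps up to 300000 bp 21.2% held a region, of those from 500000 to 1000000 bp 75.1%, and of those over 2000000 bp 87.2%. The number per Mb that was open to the rule went the other way, from 6.31 in the shortest gaps to 1.39 in the longest. The longest class includes empty gaps whose left gene is placed, doubtfully, in the unassembled start of a chromosome. These add to its length and to its number of gaps. There were 290 deserts with 1 region and 131 with 5 or more, and 33 deserts held 342 of the regions with 8 or more each.

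**Figure D5:**
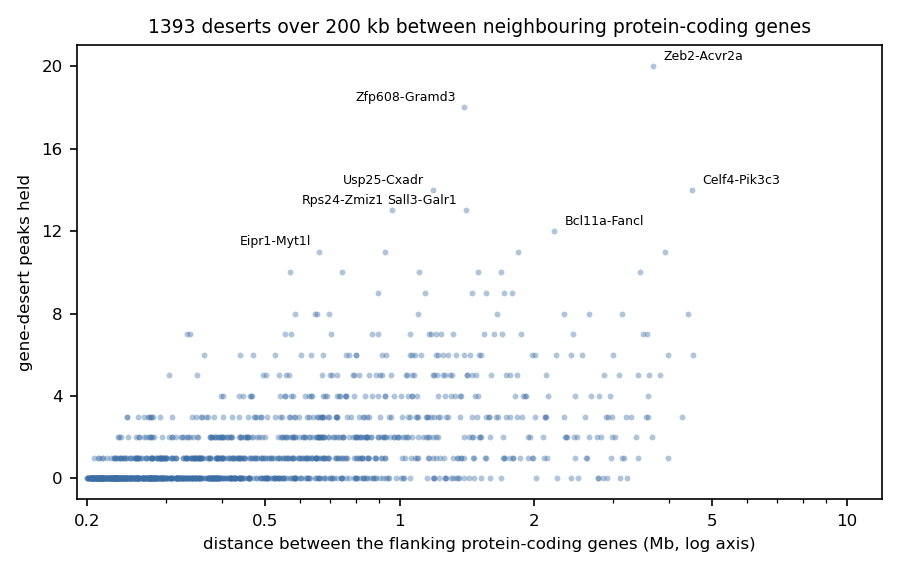
Number of desert regions (y axis) in each of 1393 gaps of more than 200000 bp between neighbouring protein-coding genes, by the length of the gap in Mb (log axis). The 8 gaps with the most regions are named; Zeb2 to Acvr2a holds 20 and Eipr1 to Myt1l, one of the shortest named, holds 11.

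The fullest desert lay between Zeb2, a repressor needed for oligodendrocyte maturation, and Acvr2a, a receptor of activins, on chromosome 2. All 20 of its control day 1 peaks of at least 1 FPM were present in both other libraries, of 88 peaks in all. Their pileups ran from 13 to 79 fragments in progenitors (median 34.5), from 19 to 80 in control day 1 (36.5) and from 8 to 37 in Seh1cKO cells (13.5). Seh1cKO cells were below control day 1 in FPM in 17 of 20, with a median log2 ratio of -0.44, and the closest region lay 108285 bp from Zeb2. Zfp608 to Gramd3 held 18 regions of 21 peaks of that strength, with a median ratio of -0.46.

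The Usp25 to Cxadr desert, which contains Mir99ahg, held 14 regions with 16 to 132, 19 to 144 and 8 to 71 fragments and a median Seh1cKO ratio of -0.38. Celf4 to Pik3c3, over 4.31 Mb open to the rule, also held 14, all below control day 1 in Seh1cKO cells. That desert contained the region farthest from any protein-coding gene, 2187706 bp from Pik3c3, with 18, 32 and 14 fragments. The next farthest lay between Pcdh20 and Pcdh9, a pair of protocadherin genes (27, 45 and 13 fragments), and between Cntnap5b and Cdh20 (73, 94 and 57).

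Rps24 to Zmiz1 and Sall3 to Galr1 held 13 each. Zmiz1 is a transcriptional coactivator and Sall3 a zinc finger transcription factor. The Sall3 regions had the smallest difference of these deserts, with a median Seh1cKO ratio of -0.11 and a progenitor ratio of -0.11. Bcl11a, a zinc finger repressor of the nervous system and blood, flanked 12 regions towards Fancl. There every region was below control day 1 in both other libraries, with median log2 ratios of -0.59 in Seh1cKO cells and -0.97 in progenitors. The Eipr1 to Myt1l desert held 11 regions at 23.9 per Mb, and Myt1l is a zinc finger factor of neurons and oligodendrocyte progenitors. A cluster of 5 there reached 81 fragments in control day 1, with 19 in each of the other libraries at that region. Sox2 stood between a pair of deserts with 10 and 8 regions. It was the nearest gene of 13 of these 18, and the closest lay 117379 bp away.

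Long empty deserts were also found, and those named here were chosen after their values were seen. Cox7c to Edil3, over 2774676 bp, had 26 control day 1 peaks, 1 of them of at least 1 FPM. Trim52 to Slitrk1, over 2774125 bp, had 63 peaks and none of that strength. Others have a left gene placed in the unassembled start of a chromosome. Examples are LOC115489419 to Selenop, from position 155283 of chromosome 15, and LOC115489386 to AU018091, from position 248402 of chromosome 7. The places of such left genes are doubtful, so these gaps may not be true deserts, though they are counted among the 1393.

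The flanking genes were compared with lists of genes by role. Of 131 autosomal genes listed as developmental transcription factors, 97 (74.0%) flanked a desert of more than 200000 bp, against 11.5% of all 20665 autosomal protein-coding genes. Their 124 deserts held a region in 71.0% (62.1 to 78.8), beside 54.2% of all deserts, and 5.07 regions per Mb, beside 3.06. Beside Zeb2, Sox2, Sall3, Bcl11a and Myt1l, genes of this list with many regions were Pou3f3, a POU factor of cortical neurons and glia (11), Mycn (10), Sox9 (9), and Irx1, Sox11 and Klf6 (8 each). Their median log2 ratio of Seh1cKO to control day 1 was -0.43, and the share more than 2-fold lower was 18.5%, beside 22.4% of all desert regions. For the 9 regions flanking Sox9, a factor of glial fate, the median was 0.060. Deserts differ in length between lists, which sets how many regions they can hold.

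Adhesion molecules and synapse organisers flanked long deserts. Of 70 listed genes 60 flanked one, and 71 of their 93 deserts held a region (76.3%, 66.4 to 84.5), at 1.81 per Mb. The median length open to the rule was 994 kb, against 391 kb for the transcription factors. The median Seh1cKO ratio of their 239 regions was -0.75, and -0.72 without the 8 regions above 10 FPM. In Seh1cKO cells 78 of the regions (32.6%) were more than 2-fold lower, beside 22.4% of all desert regions and 13.3% of all constant peaks. The median control day 1 pileup of these regions, 2.08 FPM, was near that of all desert regions. Adgrl2 flanked 12 regions with a median ratio of -0.92, Tenm2 10 with -0.95, Cdh11 10 with -0.67, Pcdh10 7 with -0.93 and Cadm2 7 with -1.08. Ncam1, with 8 regions, had a median of -0.45, and the 4 beside Ntm one of 0.060. The same list was also low in progenitors, with a median ratio of -0.71 to control day 1, and its ratio of Seh1cKO to progenitors was 0.026. In progenitors 78 regions (32.6%) were likewise more than 2-fold lower than in control day 1, beside 24.6% of all desert regions.

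Among axon guidance genes 17 of 26 that flanked a desert had a region (65.4%), as did 1352 of all 2374 genes that flanked one. The 80 regions had a median ratio to control day 1 of -0.67 in Seh1cKO cells and -0.86 in progenitors, and a median ratio of Seh1cKO to progenitors of 0.093. Epha7, an ephrin receptor, flanked 10 regions with a median of -1.25, Unc5d, a netrin receptor, 9 with -0.51 and Sema6d 8 with -0.51. No region flanked Sema3a, Sema3d or Robo2. Growth factor and signalling genes had a median of -0.46 over 31 deserts with a region. After Acvr2a these were led by Spry2, an inhibitor of receptor tyrosine kinase signalling (8 regions, -0.68), Fgfr2 (6, -0.17) and Gas1 (6, -0.50), and Pdgfra, the receptor of PDGF-AA, had 1 region at 149447 bp.

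Of 35 genes of oligodendrocyte progenitors 14 flanked a desert (40%, beside 11.5% of all autosomal genes), and 11 of these had a region, with 35 regions in all, led by Sox11 (8), Sox4 (6) and Id2 (5). Of 32 genes of myelin and mature oligodendrocytes 6 did (18.8%), and Car2, Gpr37, Zfp536 and Ugt8a together had 7 regions, while St18 and Tspan2 had none. Of 6 neuron genes that flanked a desert 2 had a region, beside 1352 of all 2374 such genes. Syt1 and Stmn2 had 2 regions each, while Map2, Tbr1, Elavl4 and Nefm had none. Among astrocyte genes Sox9 had 9, Gja1 4 and Slc1a3 2, and Aqp4 had none. Among endothelial and mural genes Cdh5 had 7 and Col3a1 1, and Kdr had none. Ptprc of leukocytes had 10. The Ptprc desert had 13 to 114, 20 to 102 and 11 to 38 fragments and the gene had no gene-end peak common to the libraries. Of 1508 chemosensory receptor genes 26 flanked a desert, and 2 of their 21 deserts held a region.

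Flanking genes tended to have open ends themselves. A peak within 1000 bp of a gene end in all 3 libraries was present for 67.7% (65.1 to 70.2) of 1352 genes flanking a desert with a region. For 1022 genes flanking only empty deserts it was 56.5% (53.4 to 59.5), and 55.6% for all autosomal genes. Genes beside deserts with 5 or more regions had such a peak in 73.5% (67.7 to 78.8) of 257. Over all, the 2122 regions had 995 different nearest genes, 484 of them with 1 region and 75 with 5 or more. The distance to the nearest gene had a median of 228076 bp, and 1210 regions lay beyond 200000 bp, 318 beyond 500000 bp and 72 beyond 1000000 bp.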

How the data were processed

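ATAC-seq was analysed from 1 deposited peak table for each of 3 libraries. Per the submitters' processing notes, Bowtie2, SAMtools, MACS2 and build mm10 were used. Per the file headers, the authors ran MACS 2.1.2_dev on the paired-end fragments of 1 library at a time, without a control and keeping duplicates, at q 0.05, with peaks of at least 100 bp, gaps up to 50 bp and background taken over 10000 bp. Per the file headers, the deposited tables give the pileup signal at the summit in fragments, fold enrichment (a ratio to local background), and −log10 p-values and q-values, whose column names were damaged. Alignment filters and shifting of reads are not given in the sources used here.

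FPM are pileups per 1000000 fragments of the library's header total. A region's value in another library is that of the strongest peak overlapping it by at least 1 bp. The log2 ratios have no pseudocount. Genes came from RefSeq GRCm38.p6, whose main chromosomes have mm10 coordinates: 21887 protein-coding genes on chromosomes 1 to 19, X and Y, first and last base only. Sequences are from RefSeq, same build. Mature sequences were matched by symbol for 16 of 19 microRNA genes within 10000 bp. No genome sequence was used here, so planned words were searched in promoter windows, not at summits. Genes are named by rule: flanking genes of the 10 highest regions, the 8 fullest clusters and deserts, the 5 highest and lowest of each ratio, the 3 regions either side of each threshold, the 5 farthest, listed genes, and microRNA genes within 10000 bp. Some are given only as counts. Members and lists were chosen with earlier results of these data known. With 1 library per group there is no test. Intervals of shares are exact (Clopper-Pearson, 95%) and for counting error only: fragments carry no molecular identifiers and may be copies, and neighbouring regions are not independent. The rule, overlap and chaining were tested on simulated data. Python 3.11.15, pandas 2.3.3, numpy 2.4.6 and scipy 1.17.1 were used.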

Additional observations from a re-analysis of the deposited data

How the results depend on the processing

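The main values were 2122 regions, 8.26% of constant peaks, a median length of 521 bp, 2.03 FPM in control cells at day 1, log2 ratios to control day 1 of -0.49 (Seh1cKO) and -0.53 (progenitors), 41.1% in clusters, 755 deserts with a region, 24.5% near non-coding genes and 184 listed genes that flank one. No ratio changed direction under any alternative run. With overlap of at least 50% of the peak the share of constant peaks was 7.56%, the pileup 2.19, the ratios -0.36 and -0.41 and the clustered share 33.8%. A minimum of 2 FPM gave 1063 regions, 7.21%, 596 bp, 3.12 FPM, ratios of -0.80 and -0.66 and 28.8% in clusters. Peaks with −log10 q of at least 5 gave 7.68%, 553 bp, 2.35 FPM, -0.35, -0.45 and 34.7%. Beyond 200000 bp there were 1210 regions, 4.71%, 38.8% in clusters and 442 deserts. Beyond 50000 bp the shares were 12.3% and 44.7%, in 1180 deserts. With distance taken to any RefSeq gene, there were 359 regions (1.40%), with ratios of -0.61 and -0.61, 27.0% in clusters, 210 deserts, 73 listed genes and, by construction, 0 near non-coding genes. Scaling by the median of all peaks gave -0.24 and -0.025, and the authors' fold in place of pileup -0.56 and -0.26. Joining summits within 20000 bp put 26.0% in clusters, within 100000 bp 55.6%. A window of 10000 bp put 37.0% near non-coding genes. Except where the alternative's construction shows it, the cause was not tested. Of 107 comparisons with the main values 40 moved by more than their limit and 67 did not. Leaving out regions above 10 FPM, keeping the longest peaks, adding X and using the whole peak moved none of them. The first was chosen after seeing the data. No paired analysis was possible because each group has 1 library.

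Depth limits the Seh1cKO values: a site under 6 fragments there is not called, so falls below 0.553 FPM are not seen, and regions lost altogether are outside the rule. Peak tables hold no fragments for uncalled sites. One library per group leaves differences between animals, preparations and conditions together.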
